A study of Mus musculus with 74 samples.

Results

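MEF2D-VP16 and Nur77 were compared directly over 8 of the 74 arrays of the series, 4 for each construct, chosen by their labels. All 8 arrays hold total RNA of the DO11.10 T cell hybridoma, a mouse T cell line that grows in culture. Cells transduced with MEF2D-VP16 or with MSCV Nur77 were hybridised against untreated cells of the same line, and each value was read as a log2 ratio of transduced over untreated cells. The log base and the direction are assumed, and every fold and every higher or lower rests on them. Each construct was labelled in Cy5 on 2 arrays and in Cy3 on 2, by the array titles. The MEF2D-VP16 arrays are slides 21 and 11 (transduced cells in Cy5) and slides 22 and 12 (Cy3), and the Nur77 arrays are slides 5 and 6 (Cy5) and slides 7 and 8 (Cy3). No empty-virus array entered the fits. The 4 empty-virus arrays labelled MSCV, slides 1 to 4, are shown only beside results. The labels give the virus name for Nur77 and for the empty virus and not for MEF2D-VP16, and they give no time after transduction, no sorting step and no share of transduced cells.

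MEF2D is a transcription factor of the MEF2 family that binds AT-rich sites and recruits class IIa histone deacetylases such as HDAC7, which hold its target genes silent until a signal such as T cell receptor stimulation removes them. VP16 is a viral activation domain, and a fusion to it is a common way to make a DNA-binding protein activate its targets without a signal. Nur77 is the orphan nuclear receptor encoded by Nr4a1, a known MEF2 target in T cells that is induced by strong receptor signals and linked to the death of thymocytes. It binds the NBRE, a site that nuclear receptors of its family can occupy as monomers. The design sets a MEF2 activator beside the product of one of its target genes, and the question read from it here is which RNA changes the constructs share and which belong to one of them.

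The constructs were checked first on their own genes. Nr4a1 stood at 4.24, 4.45, 3.18 and 6.12 on Nur77 slides 5, 6, 7 and 8, and at 1.04, 1.23, 1.37 and 1.82 on MEF2D-VP16 slides 21, 22, 11 and 12. Both groups lay above 0 on every array and did not overlap. Nr4a1 rose 22.6-fold with Nur77 (log2 change 4.50, SE 0.35, adjusted p = 3.79e-05, limma) and 2.57-fold with MEF2D-VP16 (1.36, SE 0.35, adjusted p = 0.0277). The second call was lost without any 1 of the 4 MEF2D-VP16 arrays or without Nur77 slide 5, with values between 1.24 and 1.48, and Nr4a1 with MEF2D-VP16 was not called over the empty virus (log2 difference 1.23, adjusted p = 0.088). Whether the Nr4a1 probe reads the viral copy, the cell's own gene or both cannot be told apart. Mef2d itself stood at 0.15, 0.20, -0.15 and -0.25 with MEF2D-VP16 and was not called (-0.01, SE 0.10, adjusted p = 0.972), and whether its probe lies within the fusion was not tested. The related receptor genes Nr4a2 (0.16 with MEF2D-VP16 and 0.30 with Nur77) and Nr4a3 (0.01 and 0.02) were not called with either construct.

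Of 16463 probes, 2134 differed between the constructs at a Benjamini-Hochberg adjusted p under 0.05 in limma. Values were higher with MEF2D-VP16 for 1108 probes (6.73 percent of all) and lower for 1026 (6.23 percent). The groups of 4 arrays did not overlap for 988 and 867 of these, and the difference reached 2-fold for 358 and 296. Against untreated cells, 1237 probes rose (7.51 percent) and 1306 fell (7.93 percent) with MEF2D-VP16, and 994 rose (6.04 percent) and 1113 fell (6.76 percent) with Nur77. At least 2-fold increases numbered 237 with Nur77 and 171 with MEF2D-VP16. In bulk RNA, a change in fewer cells and a smaller change in all cells cannot be told apart. Without slide 5 the difference was called for 1355 probes, and Nur77 against untreated cells for 1037, or 1330 without slide 6. Without slide 21 or slide 22 the MEF2D-VP16 count was 1595 or 1490.

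A probe was put in the shared class when it was called in the same direction with both constructs against untreated cells. It was called specific when it changed with one construct only and the difference between the constructs was called too. The shared class held 260 probes that rose with both and 235 that fell with both, which is 19.5 percent of all MEF2D-VP16 calls and 23.5 percent of all Nur77 calls. The constructs are set against the same kind of untreated cells, and whether arrays share untreated RNA is not given in the sources used here. MEF2D-VP16 specific were 418 probes that rose and 512 that fell, and Nur77 specific were 316 that rose and 342 that fell. A further 279 probes moved in opposite directions, 203 of them up with MEF2D-VP16. Of 3876 probes called with either construct, 1514 met none of these definitions.

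**Figure D1:**
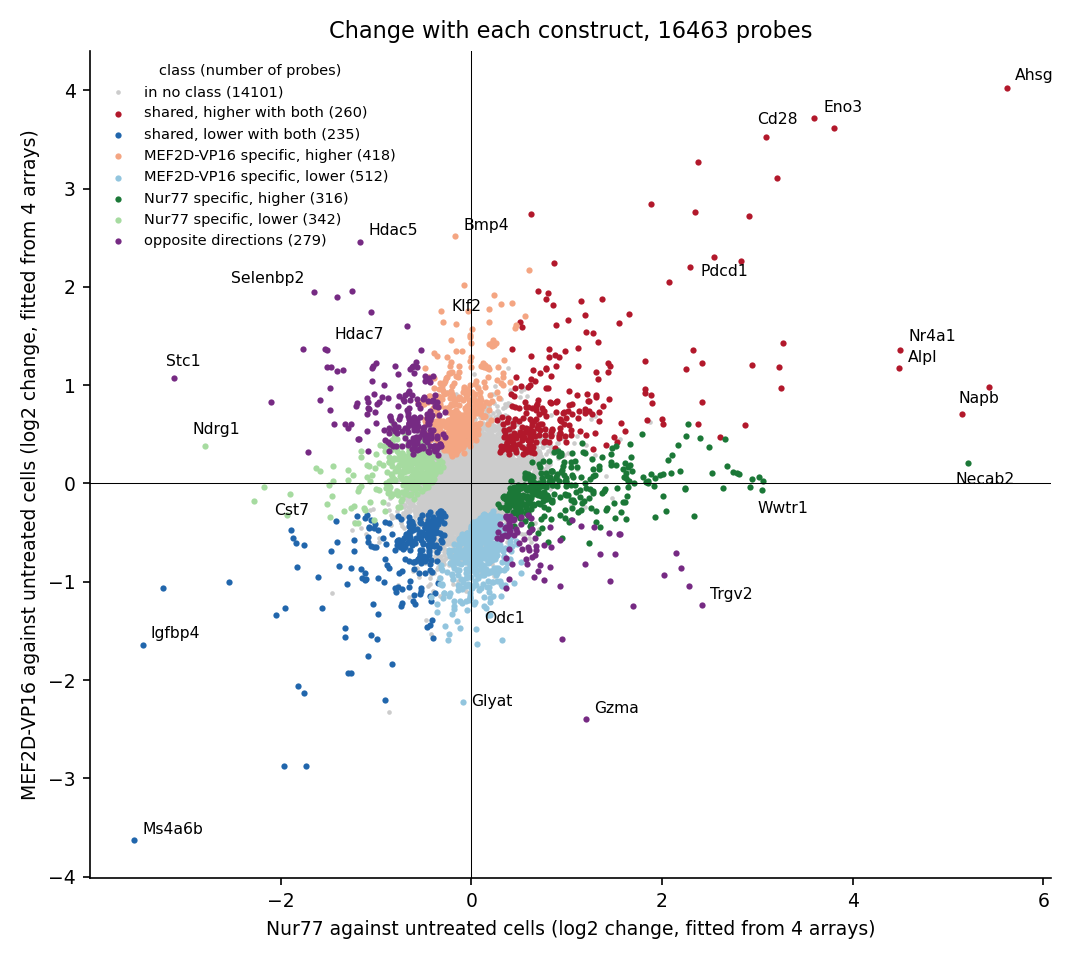
Log2 change with Nur77 against untreated cells (horizontal) and with MEF2D-VP16 against untreated cells (vertical) for 16463 probes, each a point coloured by class. Shared genes such as Cd28 and Eno3 lie along the diagonal, Necab2 and Wwtr1 lie along the horizontal axis, Bmp4 and Klf2 along the vertical axis, and Hdac5 and Stc1 in the upper left.

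The shared increases included receptors of T cell activation, among them Cd28 and Pdcd1, for which no difference between the constructs was called. Cd28, the costimulatory receptor, stood at 3.40, 3.68, 3.13 and 3.91 with MEF2D-VP16 and at 3.56, 3.96, 2.08 and 2.77 with Nur77. The groups overlapped, with the lower values on Nur77 slides 7 and 8. Cd28 rose 11.6-fold (3.53, SE 0.25, adjusted p = 3.19e-05) and 8.52-fold (3.09, SE 0.25, adjusted p = 4.12e-05), and the difference of 0.44 (SE 0.35) was not called (adjusted p = 0.514). Pdcd1, which encodes the inhibitory receptor PD-1, was the tightest: 2.17, 2.28, 2.13 and 2.22 with MEF2D-VP16 and 2.54, 2.08, 2.15 and 2.40 with Nur77. It rose 4.59-fold and 4.90-fold, with a difference of -0.09 (SE 0.14, adjusted p = 0.757). On the empty-virus arrays both genes stood near or below 0, with means of -0.28 for Cd28 and -0.39 for Pdcd1.

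Among 20 costimulatory and inhibitory receptor genes, 5 rose with MEF2D-VP16 and 7 with Nur77, and 4 rose with both, beside 7.51, 6.04 and 1.58 percent of all probes. The 4 were Cd28, Pdcd1, Cd6 (2.05 and 2.07) and Tnfrsf18 (0.98 and 0.59), the last pair named because the count is small. The remaining members divided. Cd5, a marker of receptor signal strength, rose with Nur77 (1.16) and stood at 0.41 with MEF2D-VP16, and its difference of -0.74 (adjusted p = 0.0371) was lost without any 1 of slides 21, 22, 11, 12, 5, 6 or 7. Cd160 rose with Nur77 (1.85), on arrays at 2.41, 1.62, 3.00 and 0.38, and stood at 0.03 with MEF2D-VP16. Its difference of -1.82 was not called without any 1 of the MEF2D-VP16 arrays or without slide 5. Cd27, a costimulatory receptor of the TNF receptor family, fell with MEF2D-VP16 (-0.88) and stood at 0.34 with Nur77 (difference -1.22, SE 0.18, adjusted p = 0.00232). Its empty-virus mean was -0.57, and over the empty virus Cd27 was not called with MEF2D-VP16 (-0.31, adjusted p = 0.31, limma). With Nur77 it was higher than with the empty virus (0.91, adjusted p = 0.00634). Tnfrsf9, another costimulatory receptor of that family, has probes that disagree: the first stood at -0.01 and 0.13, and the other rose by 2.72 and 2.91.

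Other shared genes with large and matching increases came from varied functions. Eno3, the muscle form of the glycolytic enzyme enolase, rose 13.2-fold with MEF2D-VP16 and 12.0-fold with Nur77 (3.72 and 3.59, SE 0.15 each). Its arrays ran from 3.28 to 3.94 with MEF2D-VP16 and from 3.26 to 4.22 with Nur77, and from -0.63 to 0.48 with the empty virus. Cd200r1, an inhibitory receptor, rose by 3.11 and 3.21, beside 0.94 on the empty-virus arrays. Tmem273 rose by 3.62 and 3.80, Nrgn, a calmodulin-binding protein best known in neurons, by 2.30 and 2.55, and Cytip, which binds the cytohesin family of adhesion regulators, by 2.76 and 2.35. Itih5, a hyaluronan-associated protein, rose by 2.26 and 2.83, although slides 11 (0.99) and 8 (1.70) lay well under the other arrays of their groups. For none of these 6 genes was the difference called. Of 43 muscle genes, 3 rose with MEF2D-VP16 and 2 with Nur77, beside 7.51 and 6.04 percent of all probes. Eno3 was the shared one.

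Some shared genes rose much further with Nur77. Ahsg, the gene of the serum protein fetuin-A, stood at 4.40, 4.03, 3.62 and 4.03 with MEF2D-VP16 and at 5.47, 6.03, 4.66 and 6.35 with Nur77. It showed the largest Nur77 change named here, 49.4-fold against 16.2-fold, with a difference of -1.60 (SE 0.33, adjusted p = 0.0118). Bcl6, a transcriptional repressor of germinal centre and follicular helper cells, rose by 1.43 with MEF2D-VP16 and 3.27 with Nur77, and these groups did not overlap. Alpl, alkaline phosphatase, rose by 1.17 and 4.49, and Napb, a factor of vesicle fusion, by 0.71 and 5.15. The MEF2D-VP16 call was lost without slide 21 for Alpl and without slide 22 for Napb. Over the whole class, 53 of the 260 shared increases differed between the constructs, 37 of them larger with Nur77 and 16 with MEF2D-VP16. The class medians were 0.66 and 0.77, beside 0.06 on the empty-virus arrays and 0.00 over all probes with either construct. When a call over the empty virus was also required with both constructs, 124 of the 260 were left, and without slide 5 the class held 170.

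**Figure D2:**
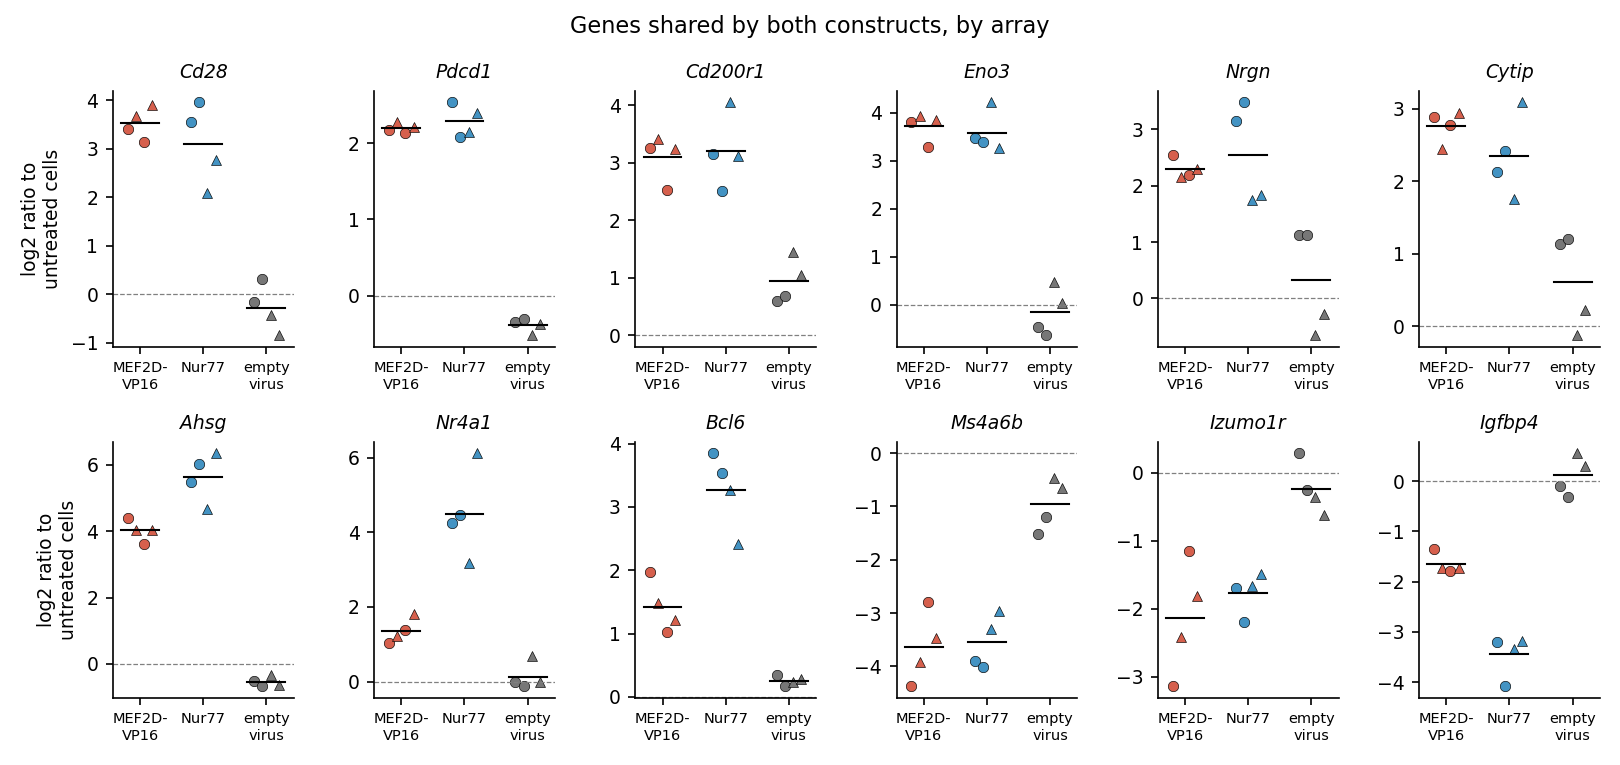
Log2 ratio to untreated cells of 12 shared genes by array, with circles for transduced cells in Cy5, triangles for Cy3 and bars for the mean of 4 arrays. The MEF2D-VP16 and Nur77 points overlap for Cd28, Pdcd1 and Eno3, lie higher with Nur77 for Ahsg, Nr4a1 and Bcl6, and lie lower with Nur77 for Igfbp4, with the 4 empty-virus arrays at the right of each panel.

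The shared decrease that was largest with both constructs was that of Ms4a6b. This gene of a T cell membrane protein stood at -4.37, -3.91, -2.79 and -3.47 with MEF2D-VP16 and at -3.90, -4.02, -3.30 and -2.96 with Nur77. The groups overlapped, and the decreases were 12.4-fold and 11.7-fold (SE 0.23 each), beside a mean of -0.96 on the empty-virus arrays. Izumo1r, the folate receptor family member of regulatory and anergic T cells, fell by 2.13 and 1.76, and its other probe by 0.44 and 0.64. Sh2d2a, an adaptor of T cell receptor signalling, fell by 1.93 and 1.29, and P2ry10, a lysophospholipid receptor, by 2.87 and 1.74. Tnfrsf19 fell by 2.06 and 1.82, but stood at -1.29 with the empty virus as well, where P2ry10 stood at -0.83. Tnfrsf8, the receptor CD30, fell by 1.56 and 1.33, with its Nur77 call lost without slide 5. Acox2, a peroxisomal oxidase, fell by 1.27 and 1.57, Rab27b, a GTPase of secretory granules, by 1.47 and 1.33, and 1500009L16Rik by 1.34 and 2.05. Over the empty virus, Tnfrsf19, P2ry10 and Rab27b were called with MEF2D-VP16 but not with Nur77 (adjusted p = 0.121, 0.178 and 0.105 with Nur77, limma).

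Igfbp4, an inhibitor of insulin-like growth factors, fell with both constructs and further with Nur77. Its values were -1.34, -1.73, -1.78 and -1.72 with MEF2D-VP16 and -3.20, -4.08, -3.34 and -3.18 with Nur77. The groups did not overlap, and the difference was 1.81 (SE 0.21, adjusted p = 0.00064). Rbpj, the nuclear effector of Notch signalling, fell by 0.32 and 1.10, and its MEF2D-VP16 call was lost without any 1 of slides 21, 22, 11, 12 or 5. Of the 235 shared decreases, 36 differed between the constructs, and 64 were also called over the empty virus with both. The class held 132 probes without slide 22 or slide 12, 153 without slide 21 or slide 8, 156 without slide 6 and 103 without slide 5.

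Hdac5 and Hdac7, genes of class IIa histone deacetylases, moved in opposite directions. Hdac5 stood at 2.52, 2.61, 2.10 and 2.63 with MEF2D-VP16 and at -1.14, -1.21, -1.07 and -1.25 with Nur77. It rose 5.52-fold with MEF2D-VP16 and fell 2.24-fold with Nur77, and the difference of 3.63 (SE 0.14, adjusted p = 4.01e-06) was 12.4-fold. The empty-virus arrays stood at -0.64, -0.58, -0.75 and -0.65, all below 0 and above every Nur77 array. Over the empty virus the Nur77 decrease was 0.51 on the log2 scale and still called (difference -0.51, adjusted p = 0.0354).

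Hdac7 stood at 1.42, 1.58, 1.17 and 1.27 with MEF2D-VP16 and at -1.51, -1.53, -1.20 and -1.85 with Nur77. The difference was 2.88 (SE 0.16, adjusted p = 1.79e-05), with an empty-virus mean of -0.83. Over the empty virus, Hdac7 differed by 2.19 with MEF2D-VP16 and by -0.69 with Nur77 (adjusted p = 0.0402). Of the 6 measured genes of class IIa deacetylases and MEF2 factors, 3 were higher with MEF2D-VP16 than with Nur77, the third being Mef2b (0.19 and -0.36, difference 0.55, adjusted p = 0.00899). The empty-virus mean of Mef2b was -0.38, and over the empty virus it was not called with Nur77 (0.01, adjusted p = 0.986, limma). Hdac9, Mef2c and Mef2d were not called in any of the 3 contrasts. Of all probes, 6.73 percent were higher with MEF2D-VP16 than with Nur77.

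Genes that rose with MEF2D-VP16 alone included regulators of lymphocyte quiescence, survival and homing. Klf2, a transcription factor that holds T cells quiescent and drives their exit from the thymus, stood at 1.90, 1.94, 1.40 and 1.78 with MEF2D-VP16 and at 0.01, 0.00, -0.80 and -0.50 with Nur77. It rose 3.37-fold, and the difference was 2.07 (SE 0.20, adjusted p = 0.000238). On the 4 empty-virus arrays Klf2 stood at -0.35, 0.07, -1.34 and -1.24. In the other empty-virus set of the series (12 arrays) it stood between -0.33 and 2.04 (median 1.05), a range that holds every MEF2D-VP16 value. Bcl2, the survival factor, stood at 1.80, 2.02, 1.34 and 1.39 against -0.43, -0.28, -0.20 and -0.27. Its difference was 1.93 (SE 0.16, adjusted p = 0.000127), and the empty-virus mean of 0.69 lay between the groups. Itgb7, the beta chain of gut-homing integrins, rose by 1.75 and stood at -0.04 with Nur77, and again the empty virus stood between (0.84). In the other empty-virus set the medians of Bcl2 and Itgb7 were -0.53 and -0.48. Bmp4, a secreted growth factor of the TGF-beta family, had the largest difference of the class (2.68, SE 0.24), with arrays from 1.77 to 2.90 against -0.34 to 0.07. Among 25 antiproliferative and quiescence genes, 10 were higher and 1 was lower with MEF2D-VP16 than with Nur77, with a median difference of 0.22 beside -0.01 over all probes. The 1 lower gene was Foxo1, which rose by 1.28 with Nur77 and stood at 0.08 with MEF2D-VP16. Of all probes, 6.73 percent were higher and 6.23 percent lower with MEF2D-VP16 than with Nur77.

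Also in this class were Zfand6 (2.02 with MEF2D-VP16 and -0.08 with Nur77), the actin-binding Lima1 (1.92 and 0.24), the phosphatase gene Ppm1j (1.62 and -0.16), the polyamine oxidase Smox (1.46 and -0.21), the chemokine receptor Ccr8 (1.42 and 0.18) and the small GTPase Rras (1.17 and -0.49). Itgav, an integrin alpha chain, rose by 1.29 and stood at -0.26 with Nur77, with 1 of its 3 probes not called (0.29 and -0.08). Among 24 genes of T cell receptor signalling, 5 were higher and 1 was lower with MEF2D-VP16, beside 6.73 and 6.23 percent of all probes. The kinase gene Zap70 moved in opposite directions (0.86 and -0.51), as did the receptor chain gene Cd247 the other way round (-0.35 and 0.62). Over the empty virus, Zap70 was called with MEF2D-VP16 (0.90) but not with Nur77 (-0.46, adjusted p = 0.243, limma). Cd247, with an empty-virus mean of -0.27, was called over it with Nur77 (0.89) but not with MEF2D-VP16 (-0.08, adjusted p = 0.8). Of the 418 probes of the class, 348 were also called over the empty virus. Without slide 21 or slide 22 the class held 248 or 245 probes.

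Nucleolar and cell cycle genes were called lower more often with MEF2D-VP16 than higher. Of 27 nucleolar and ribosome biogenesis genes, 21 fell with MEF2D-VP16 and 0 rose, against 1 fallen and 1 risen with Nur77 at an adjusted p under 0.05 in limma. Their median was -0.61 with MEF2D-VP16 and 0.01 with Nur77, beside 0.00 over all probes for each. Between the constructs 15 were lower and 2 higher, and the median difference was -0.64. Of all probes, 7.93 percent fell and 7.51 percent rose with MEF2D-VP16, and 6.76 percent fell and 6.04 percent rose with Nur77. The difference was called lower for 6.23 percent and higher for 6.73 percent of all probes. Nolc1, a nucleolar chaperone, stood at -1.04, -1.38, -1.09 and -1.61 with MEF2D-VP16 and at 0.05, 0.07, -0.06 and -0.78 with Nur77. Wdr12 and Rrs1, ribosome assembly factors, fell by 1.06 and 0.87 and stood at 0.10 and 0.15 with Nur77. Myc, a driver of these genes, went the other way: it fell with Nur77 (-0.93) and stood at 0.19 with MEF2D-VP16 (difference 1.13, adjusted p = 0.0032). The empty-virus mean of Myc was -0.39, and its decrease with Nur77 was not called over the empty virus (-0.55, adjusted p = 0.175, limma). Over the empty virus 19 of the 27 fell with MEF2D-VP16 and 3 with Nur77, beside 1166 and 354 of all 16463 probes.

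Of 43 cell cycle genes, 29 fell and 1 rose with MEF2D-VP16, and 7 fell and 1 rose with Nur77. The difference between the constructs was called lower for 15 and higher for 1, and was not called for the rest. Of all probes, 7.93 percent fell with MEF2D-VP16 and 6.76 percent with Nur77, and 6.23 percent were lower in the difference. Cdc6, which loads the replicative helicase, stood at -1.42, -1.57, -1.32 and -1.56 with MEF2D-VP16 and at -0.23, -0.19, 0.17 and -0.23 with Nur77 (difference -1.35, SE 0.14, adjusted p = 0.000312). Cdc45 and Mcm3, parts of that helicase, differed by -1.29 and -1.14, the latter with overlapping arrays, since MEF2D-VP16 slide 21 stood at -0.69 and Nur77 slide 8 at -0.79. Ccne1, cyclin E1, moved in opposite directions, falling by 1.04 with MEF2D-VP16 and rising by 0.93 with Nur77, with 0.64 on the empty-virus arrays. Odc1, the entry enzyme of polyamine synthesis, belonged with the specific decreases: its values of -1.57, -1.32, -1.48 and -1.54 stood against -0.02, 0.02, -0.01 and 0.20. Other specific decreases were Glyat, a glycine acyltransferase (-2.22 and -0.09), Pou2af1, a lymphoid coactivator (-1.59 and 0.32), Cd48, a receptor ligand of lymphocytes (-1.63 and 0.06), and Sgk1, a kinase (-1.29 and -0.05). Of the 512 specific decreases, 460 were also called over the empty virus, and without slide 21 or slide 22 there were 318 or 301.

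Genes that rose with Nur77 alone were led by genes better known from other tissues. Necab2, a neuronal calcium-binding protein, stood at 5.54, 5.61, 5.53 and 4.16 with Nur77 and at 0.45, 0.26, 0.11 and 0.04 with MEF2D-VP16. It rose 37.0-fold and stood at 0.16 with the empty virus. The 31.9-fold difference between the constructs (SE 0.27 on the log2 scale, adjusted p = 1.39e-05) was the largest named here. Wwtr1, the Hippo pathway coactivator TAZ, stood at 3.30, 3.46, 3.36 and 2.09 against 0.09, -0.16, 0.06 and -0.25. F7, coagulation factor VII, rose by 3.06, Gfra1, a receptor of glial-derived neurotrophic factor, by 3.02, Itgam, the integrin chain of myeloid and natural killer cells, by 2.94, and Myo7a, a myosin of hair cells, by 2.92. Slide 8 was the lowest Nur77 array for each of these 6 genes. Th, the rate-limiting enzyme of catecholamine synthesis, rose by 1.61 and stood at -0.19 with MEF2D-VP16. Most genes of the same tissues were not called: of 32 neuronal and synaptic genes 4 rose and 1 fell with Nur77, of 26 liver and serum protein genes 4 rose and 1 fell, and of 12 myeloid markers 1 rose and 1 fell. Of all probes, 6.04 percent rose and 6.76 percent fell with Nur77. Of 22 metabolic and steroidogenic genes known as NR4A targets, Slc2a2, a glucose transporter (1.52), and Eno3 rose with Nur77 and 0 fell.

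Immune genes were also in this class. Tnfsf10, the death ligand TRAIL, stood at 2.42, 1.57, 2.67 and 2.32 with Nur77 and at 0.84, 0.60, 0.16 and 0.33 with MEF2D-VP16. It rose 4.75-fold (difference -1.76, SE 0.23, adjusted p = 0.00128). Tnfrsf1b, the second TNF receptor, rose by 1.41 and stood at -0.27 with MEF2D-VP16. The interferon-induced genes Mx1 (1.71) and Ifit1 (1.24) rose with Nur77 and stood at 0.00 and -0.06 with MEF2D-VP16, but Ifit1 stood at 1.05 with the empty virus and Mx1 at 0.12. Of 28 interferon-response genes, 6 rose and 3 fell with Nur77, and 5 rose and 1 fell with MEF2D-VP16. The shares of all probes were 6.04 and 6.76 percent with Nur77 and 7.51 and 7.93 percent with MEF2D-VP16. The chemokine receptor genes Cxcr3 (1.66 with Nur77) and Cxcr6 (2.20) were both higher with Nur77, and Cxcr6 fell with MEF2D-VP16 (-0.86). The Cxcr3 difference was lost without slide 22, 11 or 6. Of the 316 probes of the class, 173 were also called over the empty virus, and without slide 5 there were 179.

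Genes that fell with Nur77 alone included negative regulators and transcription factors of T cells. Cst7, cystatin F, a protease inhibitor of cytotoxic granules, stood at -2.11, -1.77, -1.92 and -1.82 with Nur77 and at -0.15, -0.13, -0.06 and -0.10 with MEF2D-VP16. It fell 3.74-fold and stood at -0.03 with the empty virus (difference 1.79, SE 0.12, adjusted p = 3.92e-05). Sla2, an adaptor that dampens receptor signalling, fell by 1.63, Runx1, a transcription factor of T cell development, by 1.45, and Rara, the retinoic acid receptor alpha, by 1.59. Syt13 fell by 2.18. These 4 stood between -0.04 and 0.18 with MEF2D-VP16 and between -0.32 and -0.05 with the empty virus. Over the empty virus all 5 genes of this paragraph fell with Nur77 (adjusted p of 0.000432 or less). In the class as a whole only 89 of 342 probes were also called over the empty virus, and without slide 5 or slide 6 it held 155 or 207.

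**Figure D3:**
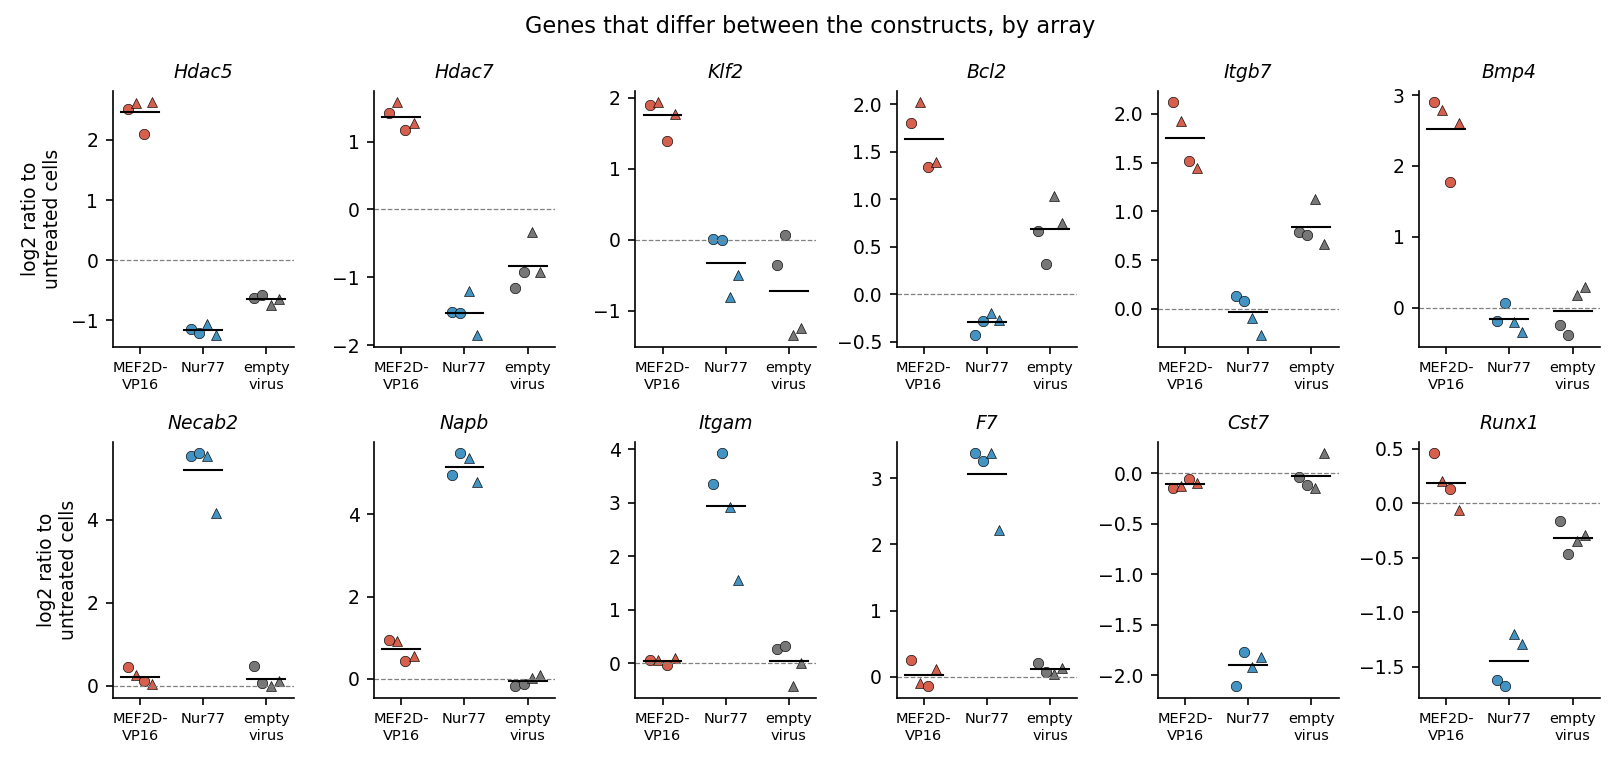
Log2 ratio to untreated cells of 12 genes that differ between the constructs, by array, with circles for transduced cells in Cy5, triangles for Cy3 and bars for the mean of 4 arrays. The upper row is high with MEF2D-VP16, with the empty-virus arrays above 0 and between the constructs for Bcl2 and Itgb7, and the lower row holds genes high (Necab2, Napb, Itgam, F7) or low (Cst7, Runx1) with Nur77 and near 0 with the empty virus or, for Runx1, at -0.32.

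The promoters of these classes were searched for the NBRE (AAAGGTCA) and for the MEF2 consensus site, on both strands, in RefSeq windows of 250 bases before to 50 after the start (build GRCm38.p6). A window was found for 10486 of 13409 measured genes, and the first listed was used. The NBRE lay in 1.17 percent of all windows and in 3.75 percent of those of genes that rose with Nur77 alone (9 of 240), against 0.326 percent of those that rose with MEF2D-VP16 alone (1 of 307). The MEF2 consensus lay in 2.09 percent of all windows, in 4.23 percent for genes that rose with MEF2D-VP16 alone (13 of 307) and in 0.417 percent for those that rose with Nur77 alone (1 of 240). For the shared increases the shares were 1.15 percent and 0.575 percent (174 windows). Among specific or shared increases of at least 2-fold, the MEF2 consensus lay in 2.94 percent with MEF2D-VP16 (3 of 102). The NBRE lay in 5.15 percent of those with Nur77 (7 of 136). In all, 4 genes held both motifs. These are matches of letters and no test was made of them.

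The sequences shown are the matches upstream of the start in genes that rose at least 2-fold with MEF2D-VP16 (MEF2 consensus) or with Nur77 (NBRE), with up to 40 bases on each side and the match in capitals. They are given on the gene's strand, 5′ to 3′. The MEF2 consensus matches belong to Hdac5, Rcor2, Klf2, Gpr146 and Cstad, which rose with MEF2D-VP16 by 2.46, 1.17, 1.75, 1.35 and 1.35 and stood at -1.17, -1.04, -0.32, -0.10 and -0.16 with Nur77. Rcor2, Gpr146 and Cstad were chosen after their values were seen.
Hdac5, chr11:102230173-102230232, minus strand: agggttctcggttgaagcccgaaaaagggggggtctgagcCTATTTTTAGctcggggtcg
Rcor2, chr19:7267148-7267237, plus strand: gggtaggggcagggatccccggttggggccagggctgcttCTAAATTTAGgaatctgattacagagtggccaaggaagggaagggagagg
Klf2, chr8:72318904-72318993, plus strand: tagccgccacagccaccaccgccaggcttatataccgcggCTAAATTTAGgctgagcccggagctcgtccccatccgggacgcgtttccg
Gpr146, chr5:139377606-139377695, plus strand: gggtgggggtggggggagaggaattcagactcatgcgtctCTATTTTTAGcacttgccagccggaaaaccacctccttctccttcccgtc
Cstad, chr2:30594912-30595001, plus strand: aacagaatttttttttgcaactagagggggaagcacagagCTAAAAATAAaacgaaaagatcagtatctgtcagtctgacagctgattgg

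The NBRE matches in genes that rose with Nur77 alone belong to F7, Slc5a11, Sag, Slc2a2 and Spns2, which rose with Nur77 by 3.06, 2.74, 2.49, 1.52 and 1.37 and stood at 0.03, 0.12, 0.37, 0.38 and -0.10 with MEF2D-VP16. Slc5a11, Sag and Spns2 were likewise chosen after their values were seen. In F7, Slc5a11 and Sag the match reads on the opposite strand, and Sag holds a second match 210 bases before the start.
F7, chr8:13025960-13026033, plus strand: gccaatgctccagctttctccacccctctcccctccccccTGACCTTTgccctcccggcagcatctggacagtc
Slc5a11, chr7:123214783-123214865, plus strand: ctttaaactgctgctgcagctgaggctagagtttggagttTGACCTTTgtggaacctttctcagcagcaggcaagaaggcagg
Sag, chr1:87803430-87803496, plus strand: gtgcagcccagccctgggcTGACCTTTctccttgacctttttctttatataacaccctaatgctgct
Slc2a2, chr3:28697840-28697902, plus strand: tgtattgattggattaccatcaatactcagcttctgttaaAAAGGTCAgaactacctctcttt
Spns2, chr11:72475028-72475114, minus strand: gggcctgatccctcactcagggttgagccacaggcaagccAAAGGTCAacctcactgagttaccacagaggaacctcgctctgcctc

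The other NBRE matches belong to shared genes, Ddc and Fgd2, also chosen after their values were seen. Ddc, the decarboxylase of dopamine and serotonin synthesis, rose by 1.71 with MEF2D-VP16 and 1.19 with Nur77, and its second probe was not called (-0.05 and -0.14). Fgd2, an exchange factor of the GTPase Cdc42, rose by 0.39 and 1.41. The match in Ddc reads on the opposite strand.
Ddc, chr11:11898170-11898257, minus strand: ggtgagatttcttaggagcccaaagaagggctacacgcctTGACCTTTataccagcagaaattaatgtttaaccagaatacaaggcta
Fgd2, chr17:29360756-29360843, plus strand: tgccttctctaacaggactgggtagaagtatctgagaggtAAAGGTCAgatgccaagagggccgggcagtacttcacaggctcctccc

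Several of the largest differences lay in genes that stood on the same side of 0 with Nur77 and with the empty virus. Of 34 hypoxia and glycolysis genes, 19 were higher and 1 was lower with MEF2D-VP16 than with Nur77, with a median difference of 0.74. Of all probes, 6.73 percent were higher and 6.23 percent lower. The list was written with earlier results of these data known. It holds Selenbp2, Selenbp1, Aldoc and Ndrg1, which are among the 12 highest differences, so its counts are a description only. Against untreated cells 15 of the 34 rose and 2 fell with MEF2D-VP16, and 3 rose and 13 fell with Nur77. The shares of all probes were 7.51 and 7.93 percent with MEF2D-VP16 and 6.04 and 6.76 percent with Nur77. The median of the 34 genes with the empty virus was -0.39. Over the empty virus 21 of the 34 rose and 0 fell with MEF2D-VP16, while 6 rose and 0 fell with Nur77. Of all 16463 probes, limma called 1165 higher and 1166 lower than the empty virus with MEF2D-VP16. With Nur77 it called 469 higher and 354 lower. Ndrg1, a hypoxia-induced gene, stood at -2.92, -2.10, -2.90 and -3.27 with Nur77 and at -3.13, -3.14, -3.32 and -3.58 with the empty virus, against 0.18, 0.12, 1.13 and 0.12 with MEF2D-VP16. These are values of its first probe. The other probe stood at -0.02 with MEF2D-VP16 and -0.00 with Nur77 (adjusted p = 0.969 and 0.991), so the decrease with Nur77 was seen on 1 of its 2 probes. Stc1, a secreted hormone induced by hypoxia, had the largest positive difference (4.19, SE 0.27), with -3.12 with Nur77, -2.09 with the empty virus and 1.07 with MEF2D-VP16. In the other empty-virus set of 12 arrays, Stc1 stood between -1.14 and 2.62 (median 1.13).

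Selenbp2, Selenbp1 and Aldoc also moved in opposite directions, rising by 1.95, 1.90 and 1.37 with MEF2D-VP16 and falling by 1.65, 1.41 and 1.77 with Nur77, beside -3.38, -1.72 and -2.31 with the empty virus. Selenbp2 was in fact higher with Nur77 than with the empty virus (1.73, adjusted p = 0.000126). The cyclin gene Ccng2 (1.15 and -1.35, empty virus -2.23) and the mitochondrial Mgarp (0.83 and -2.10, empty virus -2.10) were higher with MEF2D-VP16 too. In the other empty-virus set the medians of Selenbp2, Selenbp1, Aldoc, Ccng2 and Mgarp were 0.49, 0.28, 0.37, 0.87 and 0.13. Of 19 p53 target genes, 2 were higher and 6 lower with MEF2D-VP16 than with Nur77, beside 6.73 and 6.23 percent of all probes. The median difference of the 19 genes was 0.03. Among them Ddit4, which is also on the hypoxia list, rose by 0.77 with MEF2D-VP16 and fell by 0.54 with Nur77. Phlda3 and Aen fell by 1.58 and 0.98 with MEF2D-VP16 and rose by 0.95 and 0.76 with Nur77, beside 1.18 and 1.16 with the empty virus. Tnfsf4, the costimulatory ligand OX40L, stood at -1.25, 1.70 and 1.52 in that order of groups. In the other empty-virus set the medians of Phlda3, Aen and Tnfsf4 were -0.01, -0.43 and -0.05. Of 18 cholesterol synthesis genes, 7 fell with Nur77 and 6 were higher with MEF2D-VP16 than with Nur77, beside 6.76 and 6.73 percent of all probes. The median of the 18 genes with the empty virus was -0.46 beside -0.34 with Nur77.

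**Figure D4:**
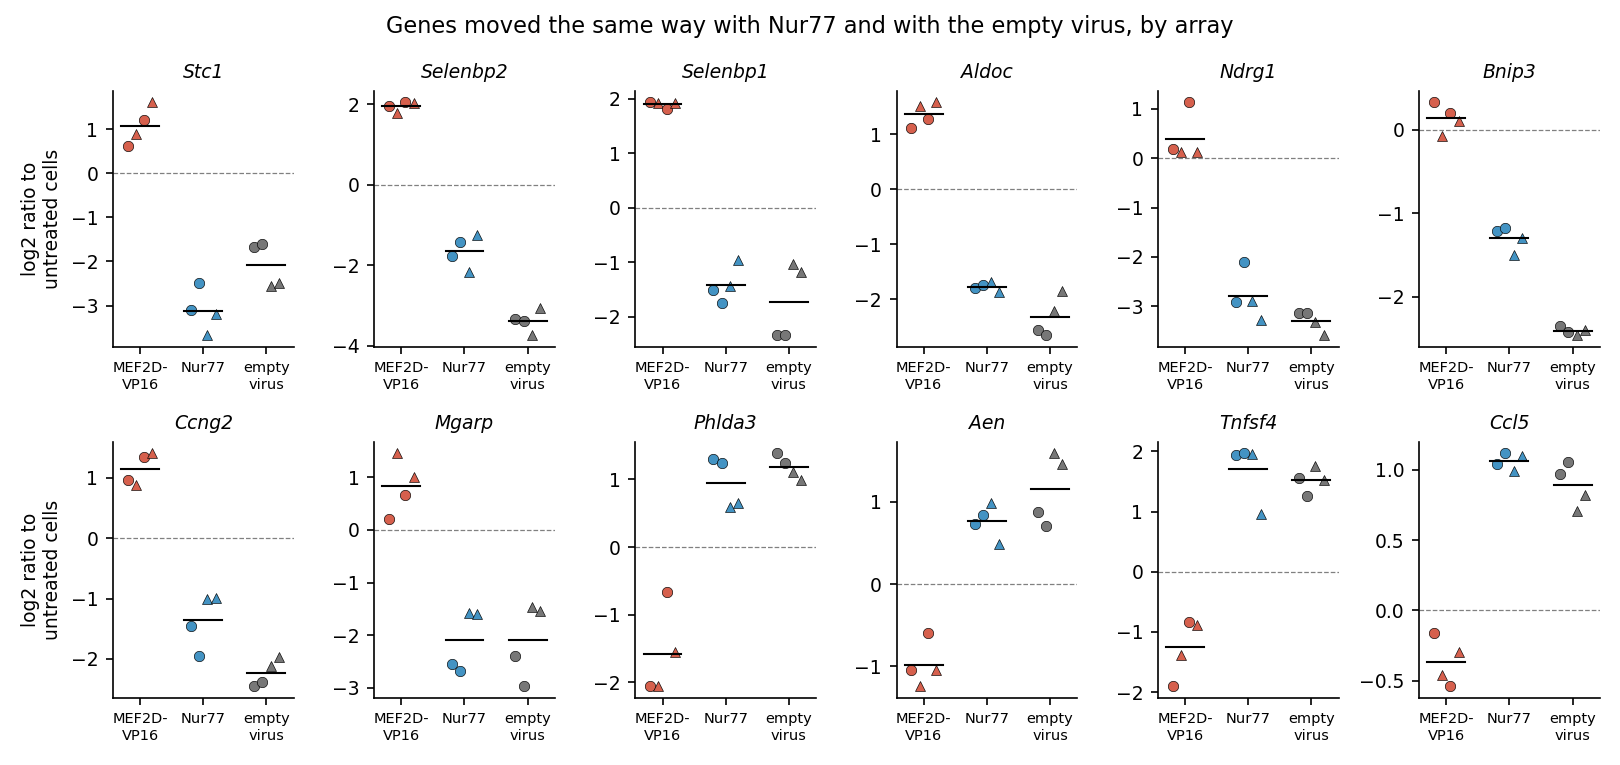
Log2 ratio to untreated cells of 12 genes by array, with circles for transduced cells in Cy5, triangles for Cy3 and bars for the mean of 4 arrays. The Nur77 and empty-virus arrays lie on the same side of 0 in every panel and the MEF2D-VP16 mean lies on the other side, except for Ndrg1 and Bnip3, where MEF2D-VP16 lies close to 0.

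Not every opposite gene was of that kind on the 4 empty-virus arrays shown here. Henmt1, a methyltransferase of small RNAs, rose by 1.96 with MEF2D-VP16 and fell by 1.25 with Nur77, and stood at 0.11 with the empty virus. In the other empty-virus set of 12 arrays, however, Henmt1 stood between -1.11 and -0.31. The T cell receptor gamma variable genes Trgv2 and Trgv1 fell by 1.24 and 0.93 with MEF2D-VP16 and rose by 2.42 and 2.02 with Nur77. Their empty-virus means were -0.05 and -0.09. For Trgv2 that mean averages 0.55, 0.60, -0.48 and -0.88, and the other empty-virus set ran from -2.90 to 1.99 (median -0.71). For Trgv1 the other set ran from -0.72 to 0.30. Both genes belong to a family of near-identical copies, so their probes may read more than 1 gene. Gzma, granzyme A, stood at -3.09, -2.79, -1.57 and -2.16 with MEF2D-VP16 and at 1.28, 0.76, 1.36 and 1.40 with Nur77, and its empty-virus mean of -1.26 lay between. Of the 279 opposite probes, 53 were also called over the empty virus with both constructs in their directions. Without 1 of slides 21, 22, 5 or 8 the class held 177, 164, 145 or 179.

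The Nur77 arrays (slides 5 to 8) and the empty-virus arrays (slides 1 to 4) carry neighbouring slide numbers, and the MEF2D-VP16 arrays carry 11, 12, 21 and 22, so construct and slide set cannot be told apart. The MEF2D-VP16 slide pairs differed in spread, with 768 and 602 probes beyond 1 in size on slides 21 and 22 and 242 and 414 on slides 11 and 12. MEF2D-VP16 against untreated cells was called for 1174 probes on the first pair alone and 641 on the second. Arrays of the same construct correlated over probes at 0.66 to 0.79 with the same dye orientation, and at 0.44 to 0.63 (MEF2D-VP16) and 0.20 to 0.53 (Nur77) with opposite orientations. The empty-virus arrays correlated at 0.67 to 0.68 and at -0.29 to -0.18, so their means average over arrays of the 2 orientations that run against each other. When each construct was given its own dye term in limma, that term was called for 1665 probes with Nur77 and 192 with MEF2D-VP16, against 0 for the common term (2700 at an unadjusted p under 0.05). The difference was then called for 2870 probes, all 2134 among them. Ratios carry no expression level, so the T cell identity of the hybridoma could not be checked by level. Of 10 T cell markers 3 were higher and 1 was lower with MEF2D-VP16 than with Nur77, and of the B cell (9), myeloid (12), fibroblast (13), natural killer (12) and erythroid (6) markers, at most 1 in each direction. The shares of all probes were 6.73 and 6.23 percent.

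**Figure D5:**
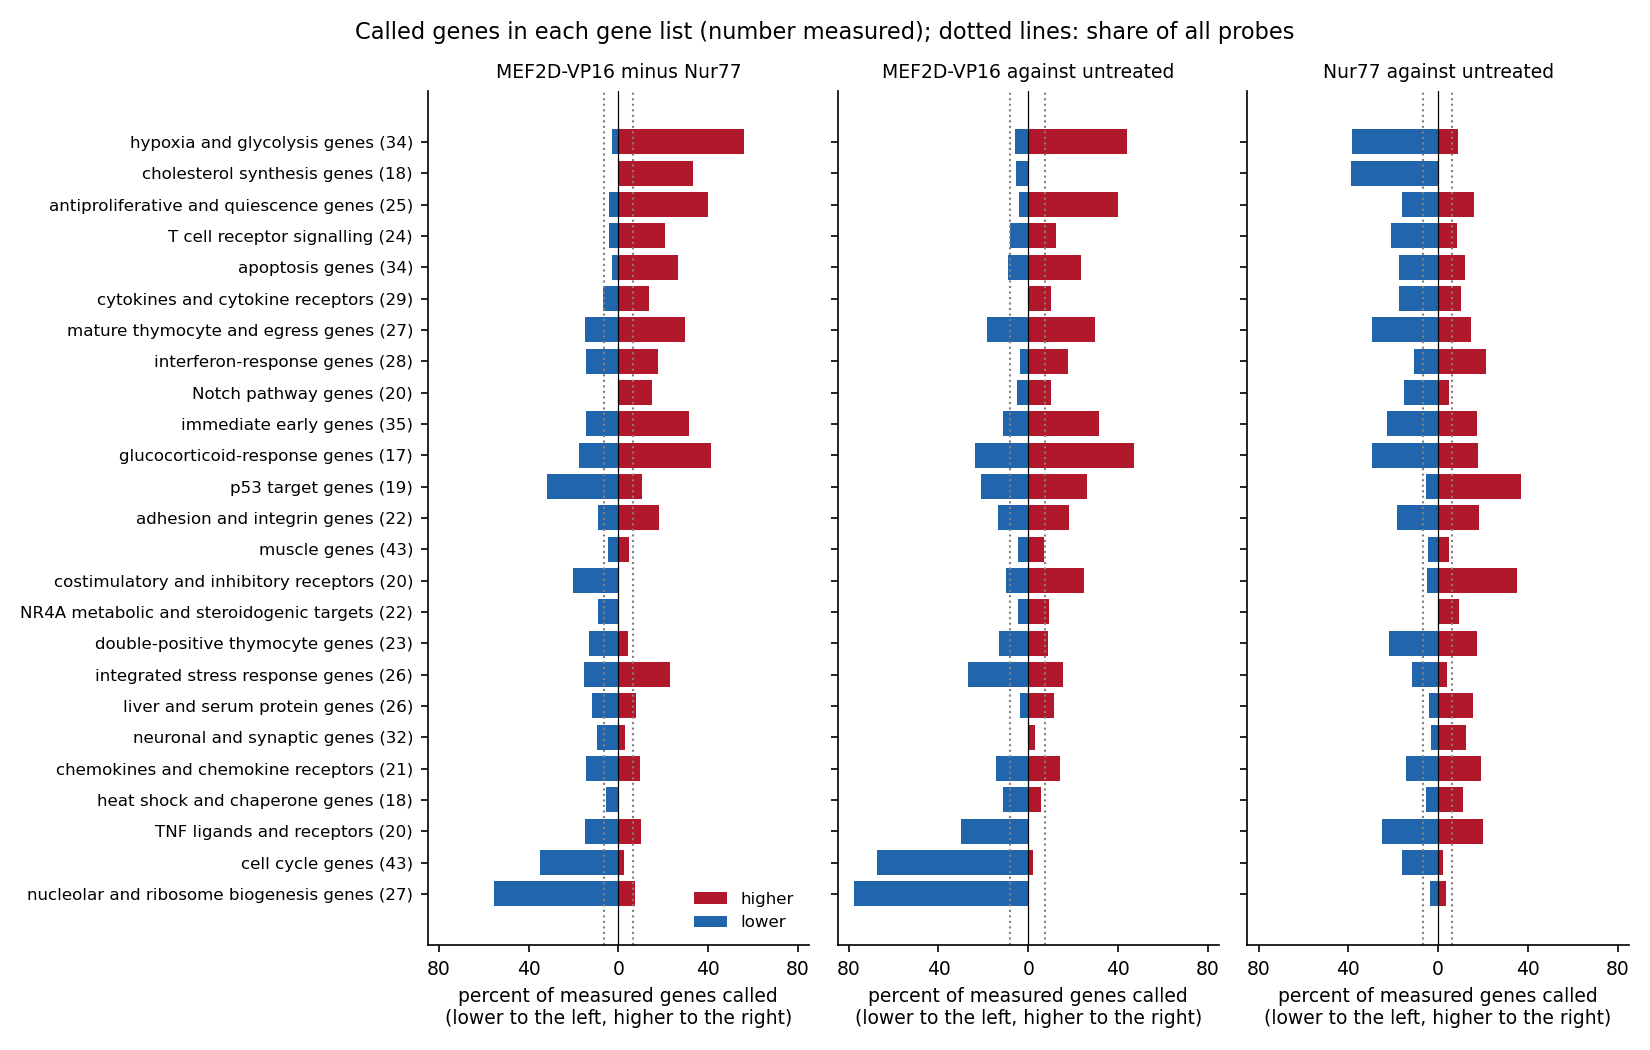
Percent of the measured genes of each list called higher (to the right) or lower (to the left) in the 3 contrasts, for the lists with 15 or more measured genes, whose number is in parentheses; dotted lines give the share of all 16463 probes. Hypoxia and glycolysis genes stand out to the right and nucleolar and cell cycle genes to the left in the difference, the latter through MEF2D-VP16.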

How the data were processed

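The authors deposited 1 table of log ratios for each array. The sources used here do not give the scanner, the normalization, the log base or the direction of the ratios. The deposited values were taken as log2 values, an assumption. Arrays of opposite dye orientation correlated positively within both constructs, so they were taken to run in 1 direction. That it is transduced over untreated was assumed, with Nr4a1 above 0 on every Nur77 array. Dye orientation came from the titles, since the dye labels give Cy3 for each channel. Each array was centred on its median. limma 3.58.1 (lmFit and eBayes, R 4.3.3) was fitted to 8 arrays with a mean per construct and 1 dye term, with Benjamini-Hochberg adjustment over 16463 probes in each contrast and a threshold of 0.05. The script was tested on simulated data. No label names separate cultures, so the p-values rest on variation among arrays that can be technical. The number of arrays limits the precision. GEO's platform annotation, which can be old, gave 1 gene symbol for 14551 probes, several for 6 and none for 1906.

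Members and gene lists were chosen with earlier results of these data known. Named are all NR4A, class IIa deacetylase and MEF2 genes, the 12 highest and 12 lowest differences, the 10 leading genes of each shared and specific class in each direction, up to 12 opposite genes and up to 4 called members of each list. A gene is given by its first probe. The fits over the empty-virus arrays and the dye term per construct were added after the data were seen.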

Additional observations from a re-analysis of the deposited data

Results flagged for a closer look

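Of 328 groups of 4 arrays of named genes, 21 had 1 array far from the other 3 by Dixon's test, and chance flags about 1 in 20 groups. On Nur77 slide 8 these were Necab2 (4.16, others 5.53 to 5.61), Wwtr1 (2.09, others 3.30 to 3.46), F7 (2.22, others 3.26 to 3.38), Itih5 (1.70, others 3.12 to 3.26), Tnfsf4 (0.96, others 1.94 to 1.97), Il10ra (-0.21, others -1.58 to -1.53) and Nolc1 (-0.78, others -0.06 to 0.07). On MEF2D-VP16 slide 11 they were Itih5 (0.99, others 2.64 to 2.70), Ndrg1 (1.13, others 0.12 to 0.18), Ppm1j (1.38, others 1.70 to 1.71), Selenbp1 (1.81, others 1.92 to 1.94) and Vegfb (-0.07, others 0.07).

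Nur77 slide 5 stood apart for Gadd45b (-1.30) and Ddit4 (-0.76), slide 6 for Nr4a2 (1.35, others -0.15 to 0.01) and slide 7 for Cdc6 (0.17). MEF2D-VP16 slide 21 stood apart for Mcm3 (-0.69) and Igfbp4 (-1.34), slide 22 for Myc (0.46) and Slc4a1 (-0.42), and slide 12 for Syt13 (-0.52). Slide 8 holds 7 of the 21 values and slide 11 holds 5.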

How the results depend on the processing

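The numbers of probes called, in the order difference between the constructs, MEF2D-VP16 and Nur77 against untreated cells, shared increases, shared decreases, MEF2D-VP16 specific increases and decreases, Nur77 specific increases and decreases, and opposite directions, were 2134, 2543, 2107, 260, 235, 418, 512, 316, 342 and 279. Leaving out 1 array gave 1355 to 2201, 1490 to 2758, 1037 to 2075, 170 to 248, 103 to 241, 245 to 457, 301 to 491, 179 to 327, 155 to 340 and 145 to 268. At an adjusted p under 0.01 they were 1011, 1395, 1021, 131, 78, 217, 228, 152, 156 and 102. With MEF2D-VP16 slides 11 and 12 only, the counts other than Nur77 against untreated cells were 717, 641, 99, 64, 95, 109, 157, 200 and 81. With slides 21 and 22 only, the counts that moved by over 1.5 times were 1311 for the difference, 1174 for MEF2D-VP16, 126 and 105 shared, 240 and 275 MEF2D-VP16 specific, 201 Nur77 specific increases and 143 opposite. With the slide set as a random block (estimated correlation -0.15), they were 3443 for the difference, 4191 for Nur77, 418 and 433 shared, 627 and 674 Nur77 specific and 551 opposite. Requiring a call over the empty virus left 124 and 64 shared, 173 and 89 Nur77 specific and 53 opposite. The cause of these shifts was not tested, except that fewer arrays or a stricter threshold enter by construction.

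Of 188 named values, 129 kept direction and call in every setting, and 161 without any 1 array. The 4 that reversed were uncalled differences. Leaving out 1 array gave -0.34 to 0.20 for Nr4a2, -0.30 to 0.09 for Tnfrsf9, -0.06 to 0.16 for Mef2c and -0.14 to 0.06 for Nr4a3, and slides 21 and 22 alone gave -0.08 for Mef2c and 0.07 for Nr4a3. No paired analysis was possible because the labels give the arrays of the constructs slide numbers that they do not share. Signal over background is unknown for these ratios, so dim probes could not be set apart.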

Other observations

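Shared genes were also looked up in array groups that entered no test here. With HDAC7-VP16 (10 arrays against untreated cells, grouped by their titles), Cd28 stood between 2.86 and 5.02 (median 3.81), Cytip between 1.46 and 2.85, Pdcd1 between 0.58 and 2.75, Ahsg between 0.98 and 2.99 and Nr4a1 between 1.71 and 3.93, each above 0 on 10 of 10 arrays. Necab2 had a median of 0.52 there (-0.11 to 2.77), and Napb of 0.16. With the empty virus and PMA and ionomycin (8 arrays), Bcl6 stood between 2.08 and 3.60 and Nr4a1 between 3.09 and 5.52, while Alpl stood between -0.19 and 0.15. These genes do not stand for their class. Over all 260 shared increases the median was 0.18 with HDAC7-VP16 and -0.01 with PMA and ionomycin, beside 0.00 over all probes for each.

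In DO11.10 thymocytes against MHC-deficient thymocytes (6 arrays), some named genes of different classes were high together. Hdac5 stood between 1.68 and 2.63, Klf2 between 1.52 and 1.84 and Itgb7 between 1.86 and 2.42. Bcl6 stood between 2.83 and 3.47, Pdcd1 between 1.29 and 2.15 and Gzma between 1.84 and 2.22. The class medians were 0.12 for shared, 0.17 for MEF2D-VP16 specific and 0.01 for Nur77 specific increases, beside -0.01 over all probes. The shared decreases Ms4a6b (0.54 to 1.41) and Izumo1r (1.78 to 2.57) were also above 0 on all 6 of these arrays. In the 12 arrays of the other empty-virus set, Ndrg1 had a median of 0.00 (-0.53 to 0.81), beside -3.29 on the 4 empty-virus arrays shown in the report, and Aldoc stood between 0.09 and 0.82.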
